A study of Homo sapiens with 20 samples.

Results

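The earliest sampled response of the myeloma line LP-1 to a BET inhibitor was taken from 4 of the 20 arrays of the series. They are the 2 LP-1 cultures given the inhibitor for 4 h and the 2 given its inactive enantiomer, the mirror-image form, for the same time, chosen by sample title. Every one of the 22011 probe sets on the array was compared. LP-1 is an established line of multiple myeloma, a cancer of plasma cells, and both compounds were added at 500 nM. Each array reports a log2 expression value per probe set, and each group is a pair of biological replicates.

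Further groups serve only as points of comparison. LP-1 cells with no compound were sampled at 0 h, so that culture time and compound cannot be told apart in any comparison with them. LP-1 cells given either compound for 8 h, and cells of the Burkitt lymphoma line Raji given either compound for 4 h, were on separate arrays that share nothing with the 4 h LP-1 comparison. The dose was 500 nM throughout, every treated or untreated group again held 2 replicates, and the labels do not name the inhibitor.

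BET proteins, BRD2 and BRD3 among them, carry paired bromodomains that read acetylated lysines on histone tails. They recruit the elongation factor P-TEFb to genes, and P-TEFb phosphorylates RNA polymerase II so that it leaves its pause site. Compounds that occupy the bromodomain pocket displace these proteins from chromatin, and MYC is the best-known gene to lose expression in blood cancers.

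In the values as deposited, the response within 4 h was made mainly of falls. In limma's moderated test 502 probe sets (2.28%) passed at an adjusted p under 0.05, of which 419 (1.9%) were lower with the inhibitor and 83 (0.377%) were higher. In all 502, both inhibitor arrays lay beyond both inactive arrays, a separation seen in 44% of all probe sets, 26.4% downward and 17.6% upward. Among the falls 179 exceeded 2-fold and 13 exceeded 4-fold, and among the rises 42 and 7 did. The median called fall was -0.93 and the median called rise 1.03 on the log2 scale. Probe sets with a single gene symbol stood for 327 genes among the falls and 66 among the rises. With 1 probe set for each of 14232 genes, limma called 66 higher and 325 lower (2.75% either way). At an unadjusted p under 0.05 the counts were 554 higher and 1719 lower. They are the background for the gene lists below.

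The number of calls and their split depended on single arrays. Without inhibitor replicate 1 there were 186 calls (70 higher, 116 lower) and without inhibitor replicate 2 there were 971 (90 higher, 881 lower). Without inactive replicates 1 and 2 the counts were 78 (16 higher, 62 lower) and 64 (15 higher, 49 lower). With each array centred on its median 402 probe sets were called (106 higher, 296 lower), so that the share of rises went from 16.5% to 26.4%, and it was 33% after quantile normalization (126 higher, 256 lower). Centring and leaving out inhibitor replicate 1 together gave 91 rises and 72 falls. No probe set among the 502 turned its sign under centring, quantile normalization or any of these omissions. Leaving out 1 array could not turn a sign, because both inhibitor arrays lay beyond both inactive arrays in all 502. Centring could not either, as it moved the median difference from -0.04 to 0.03 while the smallest called change was 0.44.

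**Figure D1:**
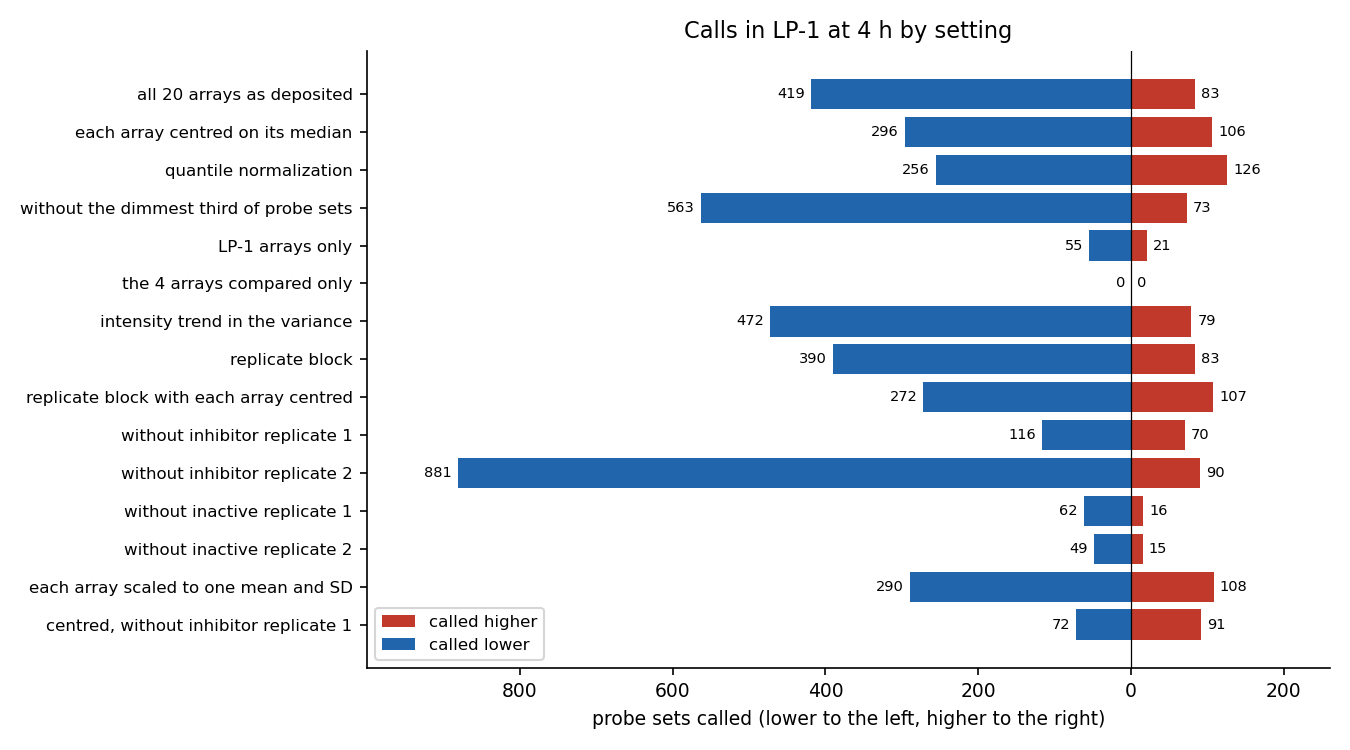
Bars give the number of probe sets called lower (to the left, blue) and higher (to the right, red) in LP-1 at 4 h under each way of fitting or scaling the arrays. Falls outnumber rises (419 against 83) with all arrays as deposited, and rises outnumber falls (91 against 72) only in the bottom bar; the 4 compared arrays fitted alone give 0 calls.

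Inhibitor replicate 1 stood apart from its partner in a way that followed brightness. Its 75th percentile was 6.80, against 7.03 on inhibitor replicate 2 and 7.12 and 7.16 on the inactive arrays. Over the 7337 brightest probe sets its median difference from the mean inactive array was -0.26, against -0.06 for replicate 2. Over the 7337 dimmest both were above 0, at 0.10 and 0.06. Among the 419 falls replicate 1 lay farther from the inactive mean in 337, while among the 83 rises it did so in 24. What part this difference between the arrays has in the number of falls was not tested.

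**Figure D2:**
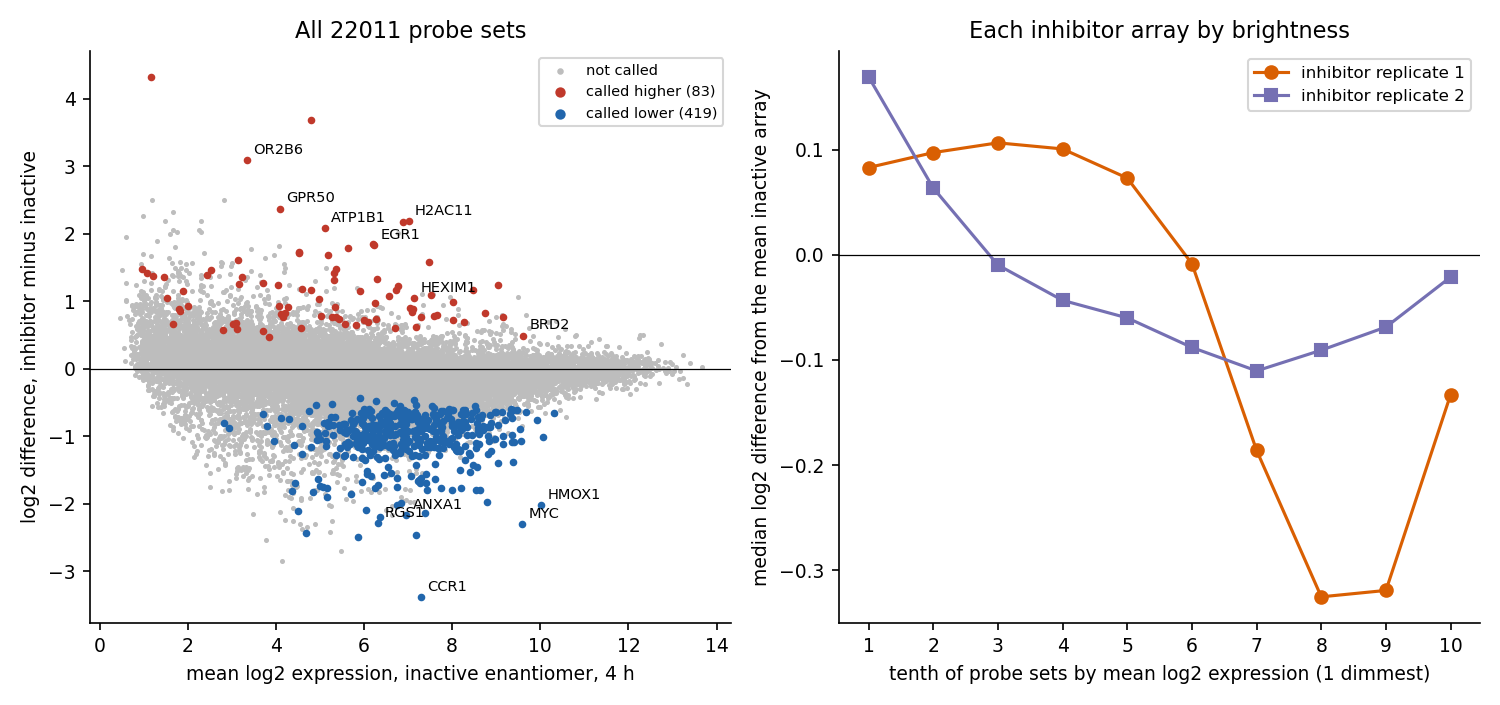
Left, the log2 difference (inhibitor minus inactive, LP-1, 4 h) of every probe set against its mean log2 expression on the inactive arrays, with called rises in red and called falls in blue. Right, the median log2 difference of each inhibitor array from the mean inactive array in 10 brightness classes: inhibitor replicate 1 (circles) drops to -0.33 in class 8, where replicate 2 (squares) lies at -0.09.

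The 4 arrays carried the profile of plasma cells. All 11 measured plasma cell markers, among them SDC1, XBP1 and IRF4, were above the array median on the inactive arrays. Their mean was 8.74 to 8.82 there and 8.31 to 8.52 with the inhibitor, with 1 of 11 called lower. In Raji given the inactive form it was 6.84 to 7.03, although CD38 and FKBP11 read lower in LP-1 than in Raji. Mature B cell markers averaged 5.83 to 5.87 on the inactive arrays, against 7.72 to 7.94 in Raji, and 2 of 11 were called lower. HLA-DRA and BACH2 among them read higher in LP-1 than in Raji. Markers of T and NK cells (14 genes), myeloid cells (9), epithelial cells and fibroblasts (12) and erythroid cells (3) averaged 3.91 to 4.40 in both groups, with 1 T and NK cell gene called lower.

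The changes that held most firmly form a short list. Of the 502, 45 probe sets (0.204%; 11 higher, 0.05%, and 34 lower, 0.154%) stayed called with all arrays, after centring, after quantile normalization and without each of the 4 arrays in turn. The 7 rises among them with a single gene symbol were H2AC11, ATP1B1, EGR1, SAT1, ZFP36, HEXIM1 and CYP2U1. The 30 falls with a single symbol began with CCR1, MYC, RGS1, RHOH, TUBD1 and RND3. Genes described below as holding in every fit belong to this list, and its members were picked out after their values were seen. The phrase covers only the fits just named, not every setting tried. With the 4 compared arrays fitted alone, 0 probe sets were called, and with LP-1 arrays only, 76 were.

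Among the direct readers and their elongation partners the changes were few. HEXIM1, which holds P-TEFb in an inactive complex and is a usual marker of BET inhibition, read 8.29 and 8.07 with the inhibitor against 7.14 and 7.13 with the inactive form, and held in every fit. BRD2 read 10.12 and 10.08 against 9.52 and 9.71, a rise of 0.49 ± 0.11 that was lost without any 1 of the 4 arrays. The other 14 of 16 measured BET, P-TEFb and super elongation complex genes did not pass, with a list median of -0.08 beside -0.03 over all 14232 genes. BRD3 read 6.11 and 5.65 against 5.58 and 5.77, so that the groups overlapped. POLR2A, the catalytic subunit of RNA polymerase II, was the 1 called member of 24 polymerase II and Mediator genes, with 8.87 and 9.05 against 8.28 and 8.26 (0.69 ± 0.13, limma adjusted p = 0.0183), and it kept that call without only 1 of the 4 arrays. Here and below, a value after ± is the standard error of a difference between 2 arrays and 2 arrays. It rests on limma's spread over all 10 groups, not on the 4 compared arrays alone. Over all probe sets the difference between the 2 inhibitor arrays had an SD of 0.54, and that between the 2 inactive arrays 0.36.

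MYC, the transcription factor that drives growth programmes, read 7.38 and 7.18 with the inhibitor against 9.59 and 9.58 with the inactive form and 9.33 and 9.76 untreated. Both inhibitor arrays lay far below all 4 control arrays, and the fall held in every fit. Of the 12 measured genes of the MYC and MAX network MYC alone was called, with 11 not passing and a median of 0.12. MXD1, a MAX partner that opposes MYC, read 6.86 and 7.45 against 6.59 and 6.60 and did not pass (adjusted p = 0.334).

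The largest fall belonged to a chemokine receptor. CCR1 read 3.92 and 3.90 with the inhibitor and 7.24 and 7.33 with the inactive form, and the untreated arrays matched the inactive ones at 7.24 and 7.42. RGS1, which shuts off G protein signals downstream of such receptors, read 3.83 and 4.26 against 6.24 and 6.41. Both held in every fit. P2RY10, a G protein-coupled receptor of lymphocytes, read 4.35 and 5.12 against 6.62 and 6.89 (-2.02 ± 0.29), and the orphan receptor gene GPR19 read 1.97 and 2.82 against 4.52 and 4.50. The inhibitor readings of CCR1, RGS1 and GPR19 lay within or below the 3.91 to 4.40 at which markers of absent cell types averaged. The sizes of their falls are therefore uncertain, as are those of SPRY1 and ANXA1 below. These averages cover single genes from 1.42 (LUM) to 8.99 (KRT8) on the inactive arrays, so they mark no floor for a single probe set. P2RY10 lost its call without 1 of the arrays and GPR19 without 3. The list of chemotactic receptors, RGS genes and chemokines had these 4 falls and 0 rises among 38 measured genes (1 higher and 6 lower at an unadjusted p under 0.05), while its median was 0.06, and 2 falls were called without inactive replicate 2. The other 34 did not pass, and RGS16 came nearest (-0.94 ± 0.24, adjusted p = 0.061).

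**Figure D3:**
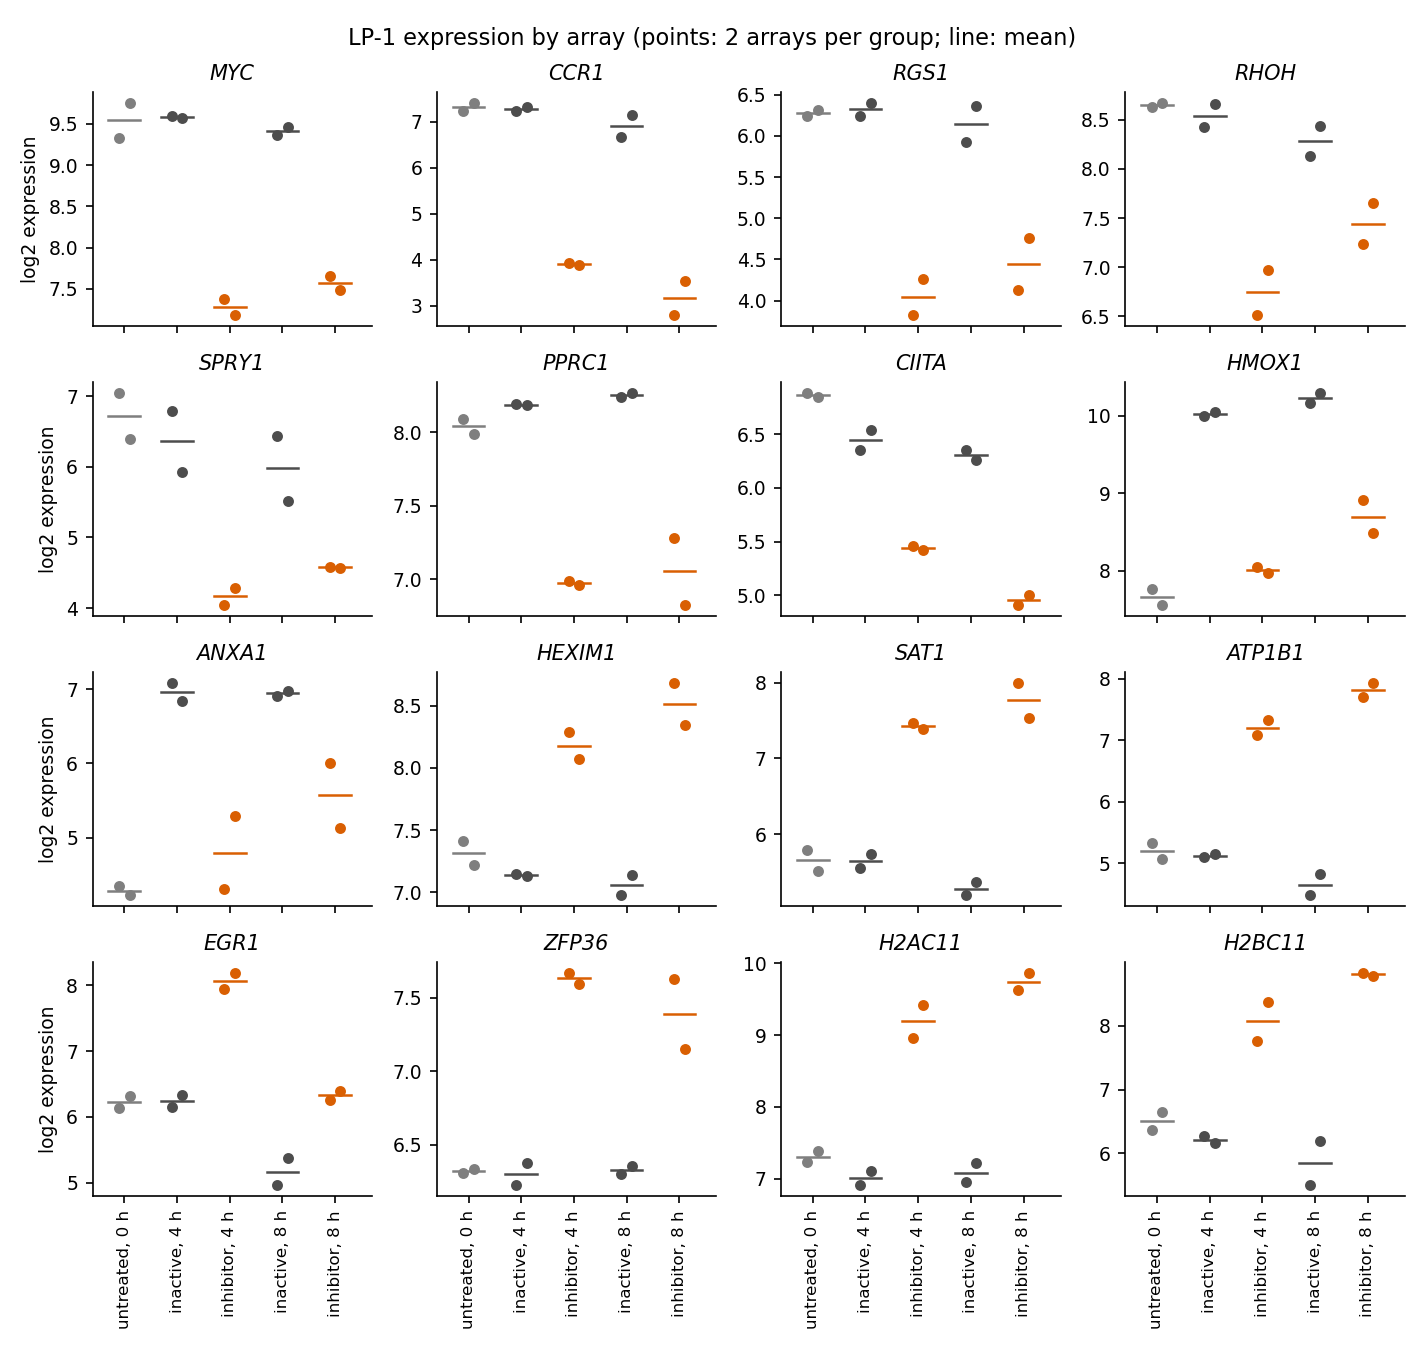
Log2 expression of 16 genes on each LP-1 array (points) with the group mean (line), for untreated cells, the inactive enantiomer and the inhibitor at 4 and 8 h, each panel on its own scale. CCR1 and MYC are level across all control arrays and low on all inhibitor arrays, whereas ANXA1 and HMOX1 are low untreated, high with the inactive form and near the untreated level with the inhibitor at 4 h.

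Further large falls lay in single signalling genes. RHOH, a haematopoietic small GTPase without GTP-hydrolysing activity, read 6.51 and 6.97 against 8.43 and 8.66 (-1.80 ± 0.19, limma adjusted p = 0.000549). RND3, another atypical small GTPase, read 5.76 and 6.23 against 7.68 and 7.82. RGL1, an exchange factor for Ral GTPases, fell by 1.45 ± 0.20 and TEC, a kinase of lymphocyte receptors, by 1.11 ± 0.15. These 4 held in every fit. SPRY1, a feedback inhibitor of receptor tyrosine kinase signals, read 4.04 and 4.29 against 6.79 and 5.93, and its call was lost without 1 array (highest adjusted p 0.0781). Of 29 measured ERK feedback genes SPRY1 and RASGRP3 fell (-1.12 ± 0.22), ETV5 rose (0.65 ± 0.15) and 26 did not pass. Without each array in turn the list had 0 rises and from 0 falls (without inactive replicate 1) to 4 (without inhibitor replicate 2).

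Regulators of the B lineage moved in 5 of 30 measured B cell and germinal centre genes (16.7%, beside 2.75% of all genes), all downward. CIITA, the master activator of HLA class II genes, read 5.46 and 5.42 against 6.36 and 6.54, with untreated cells at 6.89 and 6.85, and held in every fit (-1.01 ± 0.10, limma adjusted p = 0.000538). IKZF3 and IKZF1, the Ikaros-family factors on which myeloma cells depend, fell by 1.15 ± 0.22 and 0.75 ± 0.16. BACH2, a repressor that opposes plasma cell differentiation, fell by 0.71 ± 0.13, and P2RY10 was the fifth. BACH2 read 6.11 and 6.13 untreated, and its difference between inhibitor and untreated cells did not pass (-0.15 ± 0.13, adjusted p = 0.579). After quantile normalization IKZF1 and BACH2 lost their calls (adjusted p = 0.0902 and 0.0541). The median of the list was -0.04, close to that of all genes, and the count of falls ranged from 1 without inactive replicate 2 to 5 without inhibitor replicate 2. Outside this list IL12A, a cytokine subunit gene, fell by 1.51 ± 0.17 and held in every fit, as did ETV6, a haematopoietic ETS repressor (-0.93 ± 0.11).

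Of the plasma cell genes, 2 of 23 measured were called (8.7%, beside 2.75% of all genes), both lower. TNFRSF17, which encodes the receptor BCMA, and GPRC5D, a surface receptor of plasma cells, fell by 1.40 ± 0.32 and 0.98 ± 0.22. Neither call remained after centring. IRF4 read 10.60 and 10.86 against 10.82 and 10.89, with overlapping groups and a 95% interval of -0.54 to 0.29. SLAMF7 (-0.70 ± 0.18, adjusted p = 0.067) and XBP1 (-0.61 ± 0.15, adjusted p = 0.064) stayed short of the threshold. Of 33 measured ER chaperone and unfolded protein response genes 0 were called by limma, with 1 higher and 3 lower at an unadjusted p under 0.05.

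Among genes of myeloma growth signals IL6ST, the shared signalling subunit of the interleukin-6 receptor, read 8.79 and 9.31 against 10.03 and 10.10 (-1.01 ± 0.20, limma adjusted p = 0.0202). With TNFRSF17 it made 2 falls among 28 measured genes, and 0 were called without inhibitor replicate 1 or either inactive array. BCL2, the anti-apoptotic founder of its family, was the 1 called gene of 29 in the apoptosis list, at 7.08 and 7.29 against 8.04 and 8.05, and its call was lost after centring. BCL2L1 read -0.72 ± 0.18 as a difference (adjusted p = 0.067).

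Genes of NF-kB feedback went opposite ways. NFKBIA, the inhibitor that keeps NF-kB in the cytoplasm, read 7.93 and 7.86 with the inhibitor against 6.73 and 6.73 (1.16 ± 0.16, limma adjusted p = 0.00406). TNFAIP3, the deubiquitinase A20 that ends NF-kB signals, read 5.76 and 6.14 against 7.20 and 7.31 (-1.30 ± 0.19, limma adjusted p = 0.00415). TNFAIP8 fell by 0.80 ± 0.19, a call lost after centring, and the other 30 of 33 measured genes did not pass. The calls of NFKBIA and TNFAIP3 each failed without 1 of the 4 arrays.

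Ribosome assembly factors lay low almost throughout, although few passed singly. Of 42 measured factors 6 fell, 0 rose (0 higher and 24 lower at an unadjusted p under 0.05) and 36 did not pass. The share called was 14.3%, beside 2.75% of all genes, and 1719 of 14232 genes were lower unadjusted. Both inhibitor arrays lay below both inactive arrays in 36 of the 42, beside 26.4% of all probe sets. The median was -0.35 (-0.29 centred and -0.20 after quantile normalization), against -0.03 over all genes (0.03 centred and 0.04 after quantile normalization). It was -0.46 on inhibitor replicate 1 and -0.27 on replicate 2, and the 7337 brightest probe sets had a median of -0.15. Of the 42 differences 41 were below 0. PPRC1, which the fixed list includes, is a coactivator of growth and mitochondrial genes rather than an assembly factor. It read 6.99 and 6.96 against 8.19 and 8.19 (-1.21 ± 0.13) and was the only list member that held in every fit. No other member stayed called without inhibitor replicate 1 or without either inactive array. NOP16, which acts in assembly of the large subunit, fell by 1.07 ± 0.21, URB2 by 0.81 ± 0.13, NIP7 by 0.66 ± 0.13, NAT10, the RNA cytidine acetyltransferase, by 0.61 ± 0.13, and NOP2, an rRNA methyltransferase, by 0.59 ± 0.13. Without inhibitor replicate 2 there were 13 falls, and without each other array 1. The calls of NAT10 and NOP2 were absent after centring.

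RNA polymerases I and III, which make rRNA and tRNA, had 3 falls and 0 rises (0 higher and 13 lower at an unadjusted p under 0.05). The share called was 14.3%, beside 2.75% of all genes, and 1719 of 14232 genes were lower unadjusted. POLR1B, the second-largest subunit of RNA polymerase I, read 4.29 and 5.47 against 6.39 and 6.52, and POLR1F and POLR3D fell by 0.63 ± 0.15 and 0.82 ± 0.19. The other 18 of 21 measured genes did not pass, and the median was -0.43 (-0.26 after quantile normalization). After centring only POLR1B was called. Without inhibitor replicate 2 there were 6 falls, and without each other array 0. UTP25, a further ribosome assembly factor outside the fixed list, read 5.24 and 5.73 against 6.99 and 7.15 and held in every fit.

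Promoter windows of 3 of the ribosome assembly factors that fell are shown because each holds the letters CACGTG, the E-box recognised by MYC and its relatives. Each is written 5′ to 3′ on the gene's own strand and runs from 250 bases before to 50 bases after the annotated start in RefSeq on GRCh38.p14, and capitals mark the E-box. UTP25 lies at chr1:209827722-209828021 on the plus strand, NOP2 at chr12:6568242-6568541 on the minus strand and NAT10 at chr11:34105379-34105678 on the plus strand.
UTP25: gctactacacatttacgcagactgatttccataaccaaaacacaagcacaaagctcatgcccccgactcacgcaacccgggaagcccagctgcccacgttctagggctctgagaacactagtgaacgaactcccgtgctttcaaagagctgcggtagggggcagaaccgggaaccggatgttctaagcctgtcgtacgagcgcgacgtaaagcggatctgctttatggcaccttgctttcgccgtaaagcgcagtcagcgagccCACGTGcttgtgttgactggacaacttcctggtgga
NOP2: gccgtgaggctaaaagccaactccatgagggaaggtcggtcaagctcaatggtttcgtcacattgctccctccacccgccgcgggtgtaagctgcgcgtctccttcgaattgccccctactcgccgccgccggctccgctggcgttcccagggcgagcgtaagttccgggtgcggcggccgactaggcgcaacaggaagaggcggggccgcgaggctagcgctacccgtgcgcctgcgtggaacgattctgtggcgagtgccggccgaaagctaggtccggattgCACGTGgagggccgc
NAT10: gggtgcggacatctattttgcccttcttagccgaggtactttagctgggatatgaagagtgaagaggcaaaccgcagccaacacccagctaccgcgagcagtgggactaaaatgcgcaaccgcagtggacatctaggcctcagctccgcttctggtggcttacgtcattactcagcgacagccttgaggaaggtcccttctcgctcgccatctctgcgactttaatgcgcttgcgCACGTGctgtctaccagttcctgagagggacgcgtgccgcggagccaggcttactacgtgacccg
Among genes that fell and had a window, 46 of 280 (16.4%) held CACGTG, which reads the same on both strands. The share was 3 of 58 (5.17%) among genes that rose, 1281 of 11385 (11.3%) among all measured genes with a window and 7.26% of all windows in the table. A match describes letters only, and no binding was measured.

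Other growth programmes had few calls. Translation initiation factors had 1 of 26 called by limma, which was higher, with a list median of -0.14. That call was lost without any 1 of the 4 arrays. Cytosolic ribosomal protein genes had 0 of 17 called by limma (0 at an unadjusted p under 0.05), a median of -0.01 and a range from -0.35 to 0.47. Oxidative phosphorylation subunits had 0 of 29 called (0 unadjusted). Of 27 nucleotide and one-carbon genes UMPS, which makes UMP, was called lower (-0.60 ± 0.14), and that call was lost after centring. Aminoacyl-tRNA synthetases had 0 of 19 called (0 higher and 2 lower unadjusted), and glycolysis genes 0 of 28 (1 higher and 2 lower unadjusted).

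Among cell cycle genes the calls lay in regulators. E2F2 read 6.06 and 6.22 against 6.92 and 7.01 (-0.82 ± 0.12, limma adjusted p = 0.00523), E2F8 fell by 0.91 ± 0.18 and MYB, a transcription factor of proliferating blood cells, by 0.99 ± 0.19. These were the 3 called genes of 14 in the list of E2F and pocket protein genes, whose median was -0.33 (-0.13 after quantile normalization). The count was 4 without inhibitor replicate 2, 1 without inhibitor replicate 1 or inactive replicate 1, and 0 without inactive replicate 2. Meanwhile 0 of 33 replication genes and 0 of 31 mitotic genes were called by limma, with medians of -0.19 and -0.17. In each list 0 were higher and 6 lower at an unadjusted p under 0.05. Falls at that level were common among all genes (1719 of 14232 lower, 554 higher), so these counts single out neither list. After quantile normalization the medians of the replication and mitotic lists were -0.02 and -0.09, and both lists depended on which inhibitor array was kept.

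Antiproliferative factors rose in 4 of 23 measured genes, with 0 falls (8 higher and 0 lower at an unadjusted p under 0.05) and a median of 0.22. The share called was 17.4%, beside 2.75% of all genes, and 554 of 14232 genes were higher unadjusted. CDKN1A, the CDK inhibitor p21, read 6.64 and 7.06 against 5.86 and 4.88, so that the inactive arrays themselves differed by close to 1 unit. TXNIP, which restrains glucose uptake, read 8.41 and 8.83 against 7.45 and 7.60 (1.09 ± 0.16). TOB1 (0.80 ± 0.14) and GADD45B (0.73 ± 0.15) were the others. The count was 7 after quantile normalization, 3 without either inhibitor array and 1 without either inactive array. In the p53 target list CDKN1A rose while MDM4 and MDM2, which both restrain p53, fell by 1.18 ± 0.18 and 0.85 ± 0.17, and 25 of 28 did not pass. Neither fall was called without inhibitor replicate 1 or without either inactive array, and MDM2 was not called after quantile normalization (adjusted p = 0.0523).

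The immediate early list, of genes induced without new protein synthesis, had 3 rises and 1 fall among 28 measured genes and a median of 0.30. At an unadjusted p under 0.05, 10 were higher and 2 lower, beside 554 and 1719 of 14232 genes. The share called was 14.3%, beside 2.75% of all genes. EGR1, a zinc-finger factor, read 7.94 and 8.19 against 6.14 and 6.33 (1.83 ± 0.17, limma adjusted p = 0.000321). ZFP36, which binds AU-rich elements and hastens mRNA decay, read 7.67 and 7.60 against 6.22 and 6.37. Both held in every fit. ATF3 rose by 0.77 ± 0.12, and TRIB1, a pseudokinase, fell from 9.36 and 9.36 to 8.36 and 8.40. JUN, a subunit of AP-1, read 0.81 ± 0.20 as a difference and did not pass as deposited (adjusted p = 0.064), but it was called higher after centring (adjusted p = 0.0393) and after quantile normalization (adjusted p = 0.0294). The list then had 4 and 7 rises. It had 2 rises without either inactive array, and 0 falls without inactive replicate 2.

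The promoter window of EGR1 (chr5:138465229-138465528, plus strand, GRCh38.p14) is shown for its CArG boxes, the type of element bound by serum response factor and marked in capitals.
EGR1: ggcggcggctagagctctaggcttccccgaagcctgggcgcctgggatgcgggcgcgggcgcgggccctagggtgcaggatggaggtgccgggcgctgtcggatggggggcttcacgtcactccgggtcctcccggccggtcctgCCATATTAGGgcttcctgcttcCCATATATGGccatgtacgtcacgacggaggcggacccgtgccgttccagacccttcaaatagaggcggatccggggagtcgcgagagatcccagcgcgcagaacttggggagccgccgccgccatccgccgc
The window holds 2 such 10-letter matches, and the element reads the same on both strands. It occurred in 3 of 58 windows of genes that rose (5.17%), 7 of 280 of those that fell (2.5%), 198 of 11385 of all measured genes (1.74%) and 1.29% of all windows.

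Clustered histone genes rose in 5 of 45 measured genes, with 0 falls (16 higher and 0 lower at an unadjusted p under 0.05). The share called was 11.1%, beside 2.75% of all genes, and 554 of 14232 genes were higher unadjusted. H2AC11 read 8.96 and 9.43 with the inhibitor against 6.91 and 7.11 with the inactive form and held in every fit. H2BC21 read 9.37 and 8.77 against 6.76 and 7.03, H2BC11 7.77 and 8.37 against 6.27 and 6.16, H2BC8 5.74 and 6.73 against 4.17 and 4.86, and H3C8 8.00 and 8.00 against 6.89 and 7.33. Both inhibitor arrays lay above both inactive arrays in 27 of the 45 and below in 0, beside 17.6% above over all probe sets. The median was 0.42, and 5 members lay below 0, linker histone genes among them, with H1-1 at -0.28 (adjusted p = 0.647). The count of rises was 4 without either inhibitor array and 1 without either inactive array. Histone genes of 1 class are near copies of each other, so their probe sets can share signal.

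Windows of the histone genes with the largest rises are shown for the elements typical of their promoters, with CCAAT and TATAAA in capitals on either strand (ATTGG and TTTATA are the same letters read from the other strand).
H2AC11: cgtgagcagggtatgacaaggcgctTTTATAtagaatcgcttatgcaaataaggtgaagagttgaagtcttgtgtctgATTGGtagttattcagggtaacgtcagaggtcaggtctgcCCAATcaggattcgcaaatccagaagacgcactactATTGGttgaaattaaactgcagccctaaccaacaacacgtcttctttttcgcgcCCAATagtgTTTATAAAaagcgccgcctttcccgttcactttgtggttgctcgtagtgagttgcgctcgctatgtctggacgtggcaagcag
H2BC21: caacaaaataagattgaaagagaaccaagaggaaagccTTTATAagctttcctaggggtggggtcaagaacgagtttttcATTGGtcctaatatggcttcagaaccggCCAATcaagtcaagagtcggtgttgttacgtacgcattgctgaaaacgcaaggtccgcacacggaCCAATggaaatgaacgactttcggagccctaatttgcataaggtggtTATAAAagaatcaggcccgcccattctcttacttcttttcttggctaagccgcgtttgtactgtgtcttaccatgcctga
H2AC11 lies at chr6:27132793-27133092 on the plus strand and H2BC21 at chr1:149886633-149886932 on the minus strand (RefSeq, GRCh38.p14). The H2AC11 window holds 4 CCAAT and 3 TATAAA matches, of which a forward and a reverse TATAAA overlap, and the H2BC21 window holds 3 and 2. H2BC11 starts 248 bases from H2AC11 on the opposite strand, so that their windows share 253 bases. CCAAT occurred in 60.3% of windows of genes that rose, 47.1% of those that fell and 43% of all measured genes, and TATAAA in 27.6%, 11.8% and 11.7%.

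Rises with no shared family included some of the strongest. ATP1B1, the beta subunit of the sodium pump, read 7.09 and 7.32 against 5.09 and 5.14. SAT1, which starts polyamine breakdown, read 7.46 and 7.39 against 5.55 and 5.73, while the other 14 of 15 polyamine genes did not pass. Both held in every fit, as did CYP2U1, a fatty acid hydroxylase (0.91 ± 0.10). OR2B6, the largest called rise with a gene symbol, read 5.92 and 6.97 against 3.06 and 3.65. Untreated cells lay between these groups at 4.78 and 4.28. GPR50 read 6.11 and 6.83 against 3.80 and 4.40. SIRT1, a histone deacetylase, rose by 0.82 ± 0.14. The histone methyltransferase SUV39H1, the acetyl-lysine reader ZMYND8 and the acetyltransferase KAT5 fell by 1.15 ± 0.20, 0.95 ± 0.14 and 0.72 ± 0.15. These 4 were the called genes of 53 chromatin modifiers (7.55%, beside 2.75% of all genes). That list had 8 falls without inhibitor replicate 2, 1 without inhibitor replicate 1 or inactive replicate 1 and 0 without inactive replicate 2, and its median of -0.23 was -0.02 after quantile normalization.

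Stress genes gave scattered rises. DDIT3, the stress factor CHOP, read 6.11 and 5.89 against 4.75 and 5.19 (1.03 ± 0.18), and PPP1R15A rose by 0.97 ± 0.22. With ATF3 they made 3 rises among 31 measured ATF4 targets (9.68% called, beside 2.75% of all genes), whose median was -0.05. The count of rises was 3 without inhibitor replicate 2, 1 without inhibitor replicate 1 or inactive replicate 2, and 0 without inactive replicate 1. DNAJB1, a heat shock co-chaperone, read 7.29 and 8.00 against 6.39 and 6.75, and untreated cells lay between these groups at 7.22 and 7.09. DNAJB1 was the 1 called gene of 18 heat shock genes and kept its call without only 1 of the arrays.

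For a few genes the inactive arrays read unlike the untreated ones. For cells given the inactive form against untreated cells of 0 h, where culture time and compound cannot be told apart, limma called 3 probe sets (0.0136%), with 1089 (4.95%) at an unadjusted p under 0.05. HMOX1, which degrades heme, and ANXA1, a phospholipid-binding protein, were higher with the inactive form (0.00909% of probe sets), and ALX1 was lower (0.00454%). No probe set was called in that comparison without either 1 of the inactive arrays. HMOX1 read 7.76 and 7.56 untreated, 9.99 and 10.05 with the inactive form and 8.05 and 7.97 with the inhibitor. ANXA1 read 4.34 and 4.22 untreated, 7.09 and 6.83 with the inactive form and 4.30 and 5.29 with the inhibitor. Their falls of 2.02 and 2.17 against the inactive form thus stood beside differences of 0.35 ± 0.29 and 0.51 ± 0.34 from untreated cells, which did not pass. LIMA1, an actin-binding protein gene that held in every fit, likewise read -0.09 ± 0.16 against untreated cells. The call of HMOX1 against the inactive form was lost without 1 array and that of ANXA1 without 3. FTL, the ferritin light chain, rose against the inactive form, from 7.93 and 8.12 to 9.07 and 8.97, and kept that call without only 1 of the arrays. Untreated cells read 7.19 and 6.61, and their difference from the inactive form did not pass (1.13 ± 0.18, adjusted p = 0.159).

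Set against untreated cells, nearly all other calls lay on the same side. All 83 rises were above both untreated arrays. Of the 419 falls 408 were below both, 10 overlapped them and 1 lay above. Over all 22011 probe sets 3779 lay above both untreated arrays and 6715 below both. The calls were made on the same inhibitor arrays, so the shared side is partly built in. The comparison with untreated cells, which shares the inhibitor arrays, called 1481 probe sets (6.73%), 160 higher (0.727%) and 1321 lower (6%).

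At 8 h, on other arrays, 1262 probe sets (5.73%) were called. Of the 83 rises 57 were also called higher at 8 h (68.7% of them, and 6.88% of the 828 rises at 8 h), where the background of higher calls was 3.76%. Of the 419 falls 145 were called lower at 8 h (34.6%, and 33.4% of the 434 falls there), where the background was 1.97%, and 2 were called the opposite way. The median of the 83 rises was 1.03 at 4 h and 1.05 at 8 h, and that of the 419 falls was -0.93 and -0.48. The probe sets were chosen on their 4 h values, so the medians at the 2 times are not on an equal footing. The test of the difference between the times called 0 probe sets by limma (2901 at an unadjusted p under 0.05, lowest adjusted p 0.0732), so no named gene was shown to differ between the times. Without inhibitor replicate 2 it called 560.

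**Figure D4:**
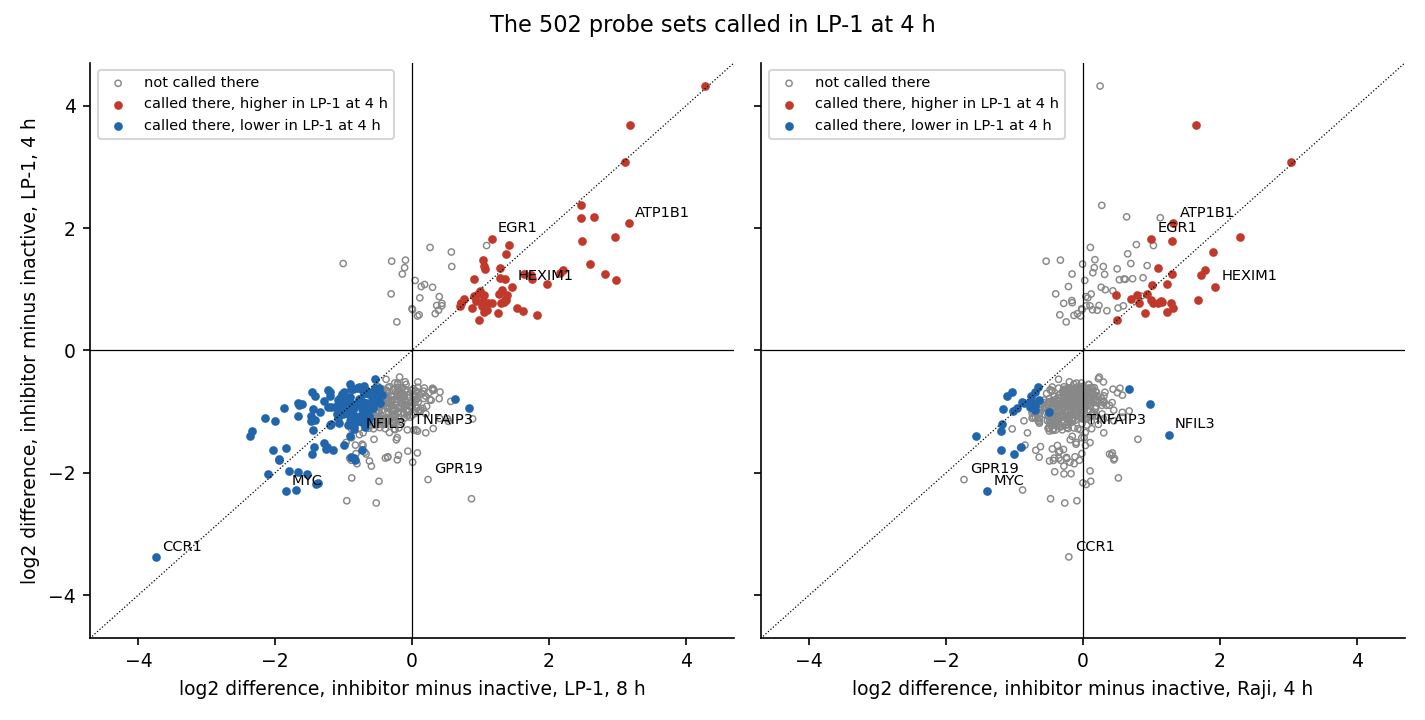
Log2 difference at 4 h in LP-1 (vertical) of the 502 called probe sets against the same difference in LP-1 at 8 h (left) and in Raji at 4 h (right), with probe sets also called there filled and the dotted line marking equality. Rises cluster along the line at 8 h (57 of 83 called), while falls reach further towards 0 on the horizontal axes (145 of 419 called at 8 h, 23 in Raji).

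The 8 h differences of single genes are given as values only. CCR1 (-3.74), SAT1 (2.49), ATP1B1 (3.17) and H2AC11 (2.66) were called at both times. TNFAIP3 read -0.07 ± 0.19, GPR19 0.23 ± 0.41, E2F8 0.21 ± 0.18, DNAJB1 0.18 ± 0.22 and BACH2 0.14 ± 0.13 at 8 h, none of which passed there. Their tests of the difference between the times did not pass either, with adjusted p-values from 0.104 to 0.239. Ribosome assembly factors had 20 of 42 called lower at 8 h, with a median of -0.50, and histone genes 12 of 45 called higher.

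In Raji at 4 h 391 probe sets (1.78%) were called. There 30 of the 83 rises (36.1%, and 9.49% of the 316 rises there) were also called higher, beside a background of 1.44%. Of the 419 falls 23 (5.49%, and 30.7% of 75) were called lower, beside 0.341%, and 3 were called higher. The test of the difference between the lines called 25 probe sets (0.114%), 24 with the higher difference in Raji (0.109%) and 1 with the lower (0.00454%), and 17 of them were LP-1 falls. With arrays centred it called 4, and between 0 and 484 without 1 of the LP-1 arrays. TUBD1, a delta-tubulin gene, read 4.36 and 4.60 against 6.20 and 6.29 in LP-1, a difference of -1.77, and 0.46 in Raji. CCR1 differed by -0.21 in Raji, and its difference between the lines was not among the 25. Its mean over all arrays of both lines was 4.25, while untreated LP-1 cells read 7.24 and 7.42. Whether Raji expressed CCR1 was not tested, so the Raji value does not show an absent response. No filter on expression in Raji was applied to the counts above.

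**Figure D5:**
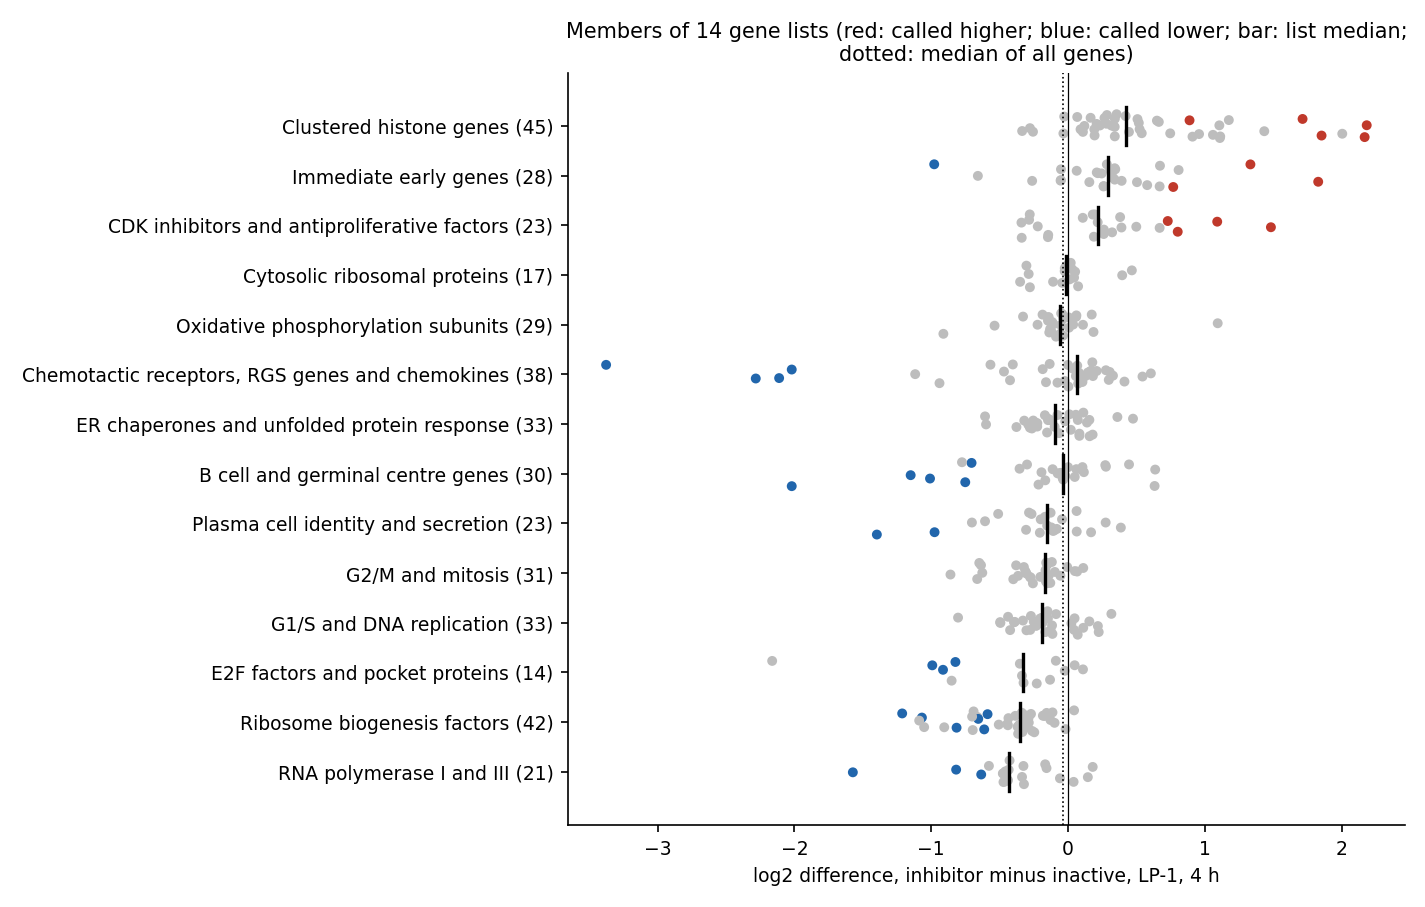
Log2 difference (inhibitor minus inactive, LP-1, 4 h) of each measured gene in 14 of the gene lists, with called rises red, called falls blue, the list median as a bar and the median of all genes dotted. Histone genes centre at 0.42 and ribosome biogenesis factors at -0.35, while ribosomal protein genes hold 0 called members around -0.01.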

How the data were processed

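Gene expression was measured on Affymetrix exon arrays. Per the submitters' processing notes, the deposited log2 values were made with RMA in Affymetrix Expression Console on hg19, with no versions given. Values were used as deposited, without a filter. Symbols came from the platform annotation: 14432 probe sets had 1 symbol, 2408 several and 5171 none. Names were updated through RefSeq (GRCh38.p14) by Entrez identifier for 14404, and where several probe sets named a gene the brightest on average stood for it (14232 genes). Promoter windows came from RefSeq.

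In R 4.3.3, limma 3.58.1 estimated 10 group means from the 20 arrays (10 residual and 2.59 prior degrees of freedom), two-sided, with Benjamini-Hochberg adjustment over 22011 probe sets. The spread is therefore pooled over 10 groups of both lines, and p-values measure only the spread between biological replicates as labelled. The fit was tested on simulated data with independent noise and no shift between arrays. That test does not cover the brightness pattern of inhibitor replicate 1. The number of arrays limits the precision.

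The comparison, the 44 gene lists and 6 marker lists were chosen with earlier results of these data known. Named genes were MYC, HEXIM1, BRD2, BRD3 and IRF4, the 15 largest called changes each way, up to 5 members per list with the smallest p, and the largest called line, time and control differences. This gave 229 genes, of which the text gives values for part, and a gene among the fixed names is not reported here. Members of the list that held in every fit and the UTP25 window were picked afterwards. Alternatives were array centring, quantile normalization, leaving out the 7337 dimmest probe sets, fewer arrays, an intensity trend, a replicate block, an adjusted p under 0.01 and omission of each array. Scaling each array to 1 mean and SD, and centring without inhibitor replicate 1, were added after seeing the data.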

Additional observations from a re-analysis of the deposited data

Results flagged for a closer look

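For 8 named genes the response at 4 h differed between the lines by limma's test of the difference, given here as the Raji difference minus the LP-1 difference on the log2 scale. TUBD1 (2.22, adjusted p = 0.0062), RGL1 (2.26, adjusted p = 0.0168), NFIL3 (2.63, adjusted p = 0.0168), LRP2BP (1.67, adjusted p = 0.0392), SELPLG (1.24, adjusted p = 0.0392) and IL12A (1.61, adjusted p = 0.0332) fell in LP-1, while their Raji differences ran from 0.10 to 1.25. NFIL3, a basic leucine zipper repressor, fell by 1.38 in LP-1 and rose by 1.25 in Raji. CA13, a carbonic anhydrase, differed by 1.89 (adjusted p = 0.0332), although its LP-1 difference of -0.76 did not pass on its own. ATF3, a stress-induced repressor, differed by -1.05 (adjusted p = 0.0461), with 0.77 in LP-1 and -0.28 in Raji. Under 7 other settings, which were centring, quantile normalization, each LP-1 array of the comparison left out in turn and centring without inhibitor replicate 1, TUBD1 kept its call in 6 (highest adjusted p 0.0742), RGL1 and NFIL3 in 4, ATF3, CA13 and IL12A in 2, and LRP2BP and SELPLG in 1.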

How the results depend on the processing

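Of 229 named genes, none of the 86 called at 4 h changed sign under any of 14 settings that held it (77 of the 86 without the 7337 dimmest probe sets). At most the settings that rescale the arrays could have turned a called sign, because the groups were separated in every call. Among the 143 not called, 16 changed sign somewhere, at adjusted p-values of 0.574 or more: after quantile normalization ANXA6 (0.018), MLXIP (0.011) and ALX1 (-0.0051), with arrays scaled RPS23 (0.154) and IRF4 (0.097), and centred without inhibitor replicate 1 HK2 (0.0078), HSPA4L (0.013), IRF4 (0.092), CYC1 (0.033), ARRDC1 (-0.212), RPL6 (0.0083), DHPS (0.041) and TXN2 (0.074). Without each array in turn IRF4 ran from -0.251 to 0.0071, ARRDC1 from -0.297 to 0.768, BRD3 from -0.019 to 0.440, PAOX from -0.0020 to 0.287, RPL14 from -0.067 to 0.859, ALX1 from -0.153 to 0.207 and ATP5MC1 from -0.054 to 0.427. Of the 86 called, 9 lost their call with arrays centred, 14 after quantile normalization and 86 when the 4 arrays were fitted alone. The 4 h count of 502 was 76 with LP-1 arrays only, 0 with the 4 compared arrays alone (2414 at an unadjusted p under 0.05), 135 at an adjusted p under 0.01, 163 centred without inhibitor replicate 1, and 64 to 971 without each array in turn. The 8 h count of 1262 was 347 with LP-1 arrays only and 399 at the stricter threshold. The difference between times, with 0 calls (2901 at an unadjusted p under 0.05), ranged from 0 to 560 without each array in turn. The 25 calls of the difference between lines became 4 centred, 16 after quantile normalization, 104 without the 7337 dimmest probe sets, 46 with an intensity trend, 7 with a replicate block, 0 with a replicate block and centring, 5 centred without inhibitor replicate 1, 1 at the stricter threshold and 0 to 484 without each array in turn. The 3 calls of inactive against untreated became 1 after quantile normalization, without the 7337 dimmest probe sets or with LP-1 arrays only, 0 with a replicate block (centred or not) or at the stricter threshold, and 0 to 3 without each array in turn. The 1481 calls of inhibitor against untreated became 983 centred, 819 after quantile normalization, 379 with LP-1 arrays only, 956 with a replicate block and centring, 229 centred without inhibitor replicate 1, 405 at the stricter threshold and 316 to 2419 without each array in turn. The cause was not tested. Replicate numbers do not pair the LP-1 cultures (correlations of deviations from -0.035 to 0.121 over 10 pairs of groups), and a replicate block gave 473 calls at 4 h. With 1 array left in a group, that array is assumed to vary like the other groups.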

Other observations

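Some groups drew attention only after their values were seen, and they get no test. Enzymes that modify tRNA had 13 of 60 measured genes lower at 4 h (21.7%, beside 2.28% of all genes) and 0 higher, with a median of -0.38. ALKBH8, which acts on the tRNA wobble uridine, read 5.77 and 6.20 against 7.63 and 7.60 (-1.63 ± 0.19) and held in every fit. THUMPD2, QTRT2, ADAT2 and TRMT5 fell by 1.28 ± 0.19, 1.24 ± 0.23, 1.16 ± 0.18 and 0.98 ± 0.19. With the 4 arrays left out in turn, THUMPD2 kept its call in 3 fits, and QTRT2, ADAT2 and TRMT5 each in only 1. The median of the 60 was -0.59 on inhibitor replicate 1 and -0.26 on replicate 2. After centring 10 of the 60 were lower, and 6 were lower at 8 h. Zinc-finger genes named ZNF and a number had 24 of 311 lower (7.72%) and 2 higher, with a median of -0.18 at 4 h and 0.07 at 8 h. ZNF215 (-1.55 ± 0.20) held in every fit.

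Further falls that held in every fit were picked by eye and stand for no group. TWNK, the mitochondrial DNA helicase, fell by 1.55 ± 0.12. GEMIN4, of the complex that assembles small nuclear ribonucleoproteins, read 5.05 and 4.97 against 6.34 and 6.36, and COA7, a factor for respiratory complex assembly, read 5.35 and 6.07 against 7.38 and 7.43. PALB2 and FANCF, both of the Fanconi anaemia and homologous recombination pathways, fell by 1.16 ± 0.13 and 1.22 ± 0.14.

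The largest rises of all belonged to a pair of probe sets without a gene symbol. The first read 5.53 and 5.44 with the inhibitor against 0.56 and 1.76 with the inactive form, but 4.30 and 4.74 untreated. The second read 8.28 and 8.70 against 4.76 and 4.84, with 5.37 and 4.79 untreated, and it differed by 3.19 at 8 h.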
